A study of Mus musculus with 16 samples.

Results

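Helper T cells treated with an Akt inhibitor were compared with control cells after 6 h of CD3/CD28 stimulation. The cells were D10, a mouse T cell line of the Th2 type, which makes IL-4, IL-5 and IL-13 and helps allergic and antibody responses. The comparison used 4 of the 16 samples of the series, 2 with the inhibitor and 2 without, each on its own Illumina mouse RefSeq array. It covered every gene whose signal was above the negative controls of the array on at least 2 of the 16 arrays, which left 7395 of 18138 genes. Treated cells received 10 µM Akti1/2, an allosteric inhibitor of the kinases Akt1 and Akt2, for 1 h and were then stimulated with biotinylated antibodies to CD3 and CD28 cross-linked with streptavidin. Control cells at 6 h received the same stimulation. The methods describe control cells as left untreated and the results name a solvent, so whether the vehicle was matched is not settled. Both groups were grown in medium with bovine growth serum and human IL-2, and D10 is 1 line, so no other T cell was sampled. The other 12 samples were treated and control cells at 0, 2 and 12 h, in duplicate. Neither the labels nor the methods state whether duplicates were separate cultures, and p-values therefore measure the spread between these samples, which may be technical.

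Akt is a kinase recruited to the membrane by the lipid product of PI3K, which the T cell receptor and CD28 switch on. Active Akt keeps FOXO transcription factors out of the nucleus, relieves TSC inhibition of the growth kinase complex mTORC1, and feeds into NF-κB activation. mTORC1 drives ribosome production, translation and, through SREBP factors, lipid synthesis. ATF4 is the transcription factor of the integrated stress response, a program of amino acid transport and synthesis genes that is switched on when the initiation factor eIF2α is phosphorylated. In helper T cells these routes are known for control of cytokine output, growth and homing receptors.

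The arrays showed a helper T cell of the Th2 kind. Of 9 helper T cell markers, 8 were above background on at least 2 of the 4 arrays at 6 h, and Thy1 was not. Of 9 Th2 markers, 7 were above background, and Maf and Ccr4 were not. None of 4 Th1 markers, of 4 Th17 and regulatory T markers and of 9 myeloid markers was above background. Signals of other cell types were found for 2 of 7 cytotoxic markers (Nkg7 and Prf1), 2 of 8 B cell and antigen presenting cell markers (Cd74 and H2-Eb1) and 1 of 4 erythroid markers (Hba-a1), while Cd8a, Cd79b and Alas2, which also mark those types, were at background. The summed intensity of the cytotoxic list was 3878 to 4977 in control and 2319 to 2549 in treated cells, that of the B cell list 1984 to 2112 and 1614 to 1813, and that of the erythroid list 1589 to 1778 and 839 to 964. Nkg7, Cd74 and Hba-a1 were called lower with Akti1/2, and their part in the results was not tested. The median intensity was 148.5 and 140.4 on the control arrays and 121.8 and 143.2 on the treated arrays at 6 h, close to the mean negative control (112.9 to 137.9), and 6398 to 6646 genes per array were above background. The correlation of log2 intensities between duplicates was 0.9917 in control and 0.9855 in treated cells. The median absolute difference between the treated duplicates, 0.212 on the log2 scale, was the widest of the 8 groups, in which the others ranged from 0.124 to 0.163.

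Akti1/2 changed the level of 2776 of the 7395 genes at 6 h (37.5%) at a Benjamini-Hochberg adjusted p under 0.05 in limma, with all 8 groups in 1 fit. The differences ran both ways in nearly equal numbers. A total of 1390 genes were higher with the inhibitor (18.8% of genes tested) and 1386 were lower (18.7%). With arrays scaled to the same mean in place of quantile normalization, 1718 genes were higher and 1107 lower, which put 60.8% of the calls on the higher side in place of 50.1%. Most differences were small. The median over all genes tested was -0.008, the median absolute difference was 0.318, and 550 genes passed the test with a difference of at least 1 on the log2 scale, 313 higher and 237 lower. A difference of at least 2 was seen in 48 genes. The values of the 2 groups did not overlap in 4787 genes (64.7%), called or not. Of the 2776 genes called, 2775 did not overlap. Where the text below says that a called gene did not overlap, this adds no support beyond the call. Among the genes called, both chips gave the same direction in 2775 of 2776, and the exception was Gabarap (11.09 and 10.73 in control, 11.06 and 11.92 in treated cells). Each chip held a control and a treated array at 6 h, so groups that do not overlap must give the same direction on both. The agreement between chips therefore adds no support either. In bulk samples, fewer cells that express a gene and less RNA per cell cannot be told apart.

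**Figure D1:**
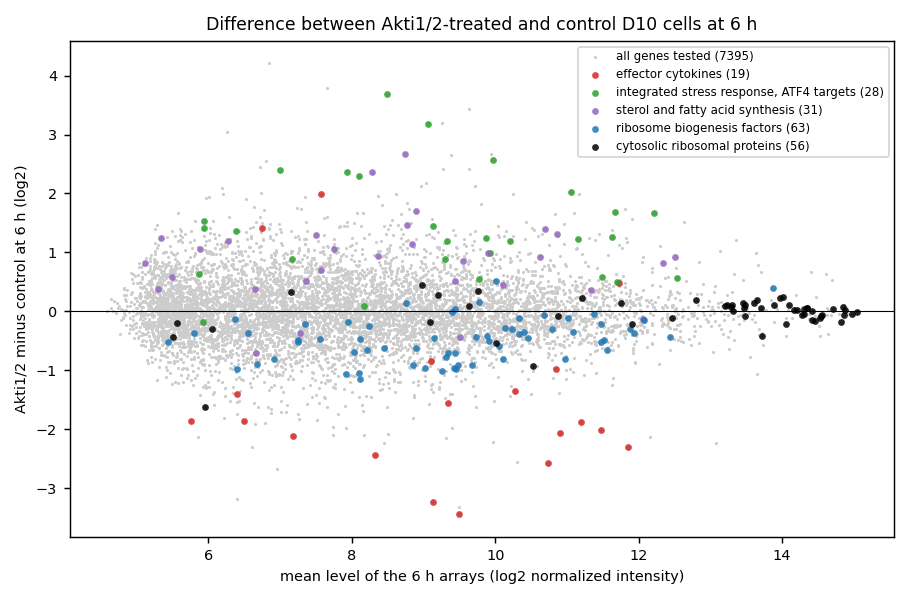
Each point is 1 of the 7395 genes tested, with the mean of its levels at 6 h (log2 normalized intensity) on the horizontal axis and the difference of Akti1/2 minus control at 6 h (log2) on the vertical axis, and 5 gene lists are colored. Effector cytokines lie mostly below 0 (median -1.86), integrated stress response genes above it (median 1.25), sterol genes above it (median 0.91), ribosome biogenesis factors below it (median -0.47) and ribosomal proteins around it (median 0.03).

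Genes were grouped into 33 lists by pathway and read against the 18.8% higher and 18.7% lower of all genes. The lists with the highest medians held targets of ATF4, sterol and fatty acid enzymes, and FOXO targets, and those with the lowest medians held effector cytokines, SOCS and PIM genes, and ribosome biogenesis factors. Within a list the genes named first are those of largest difference among the called members. Further members named beside them were chosen after their values were seen.

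**Figure D2:**
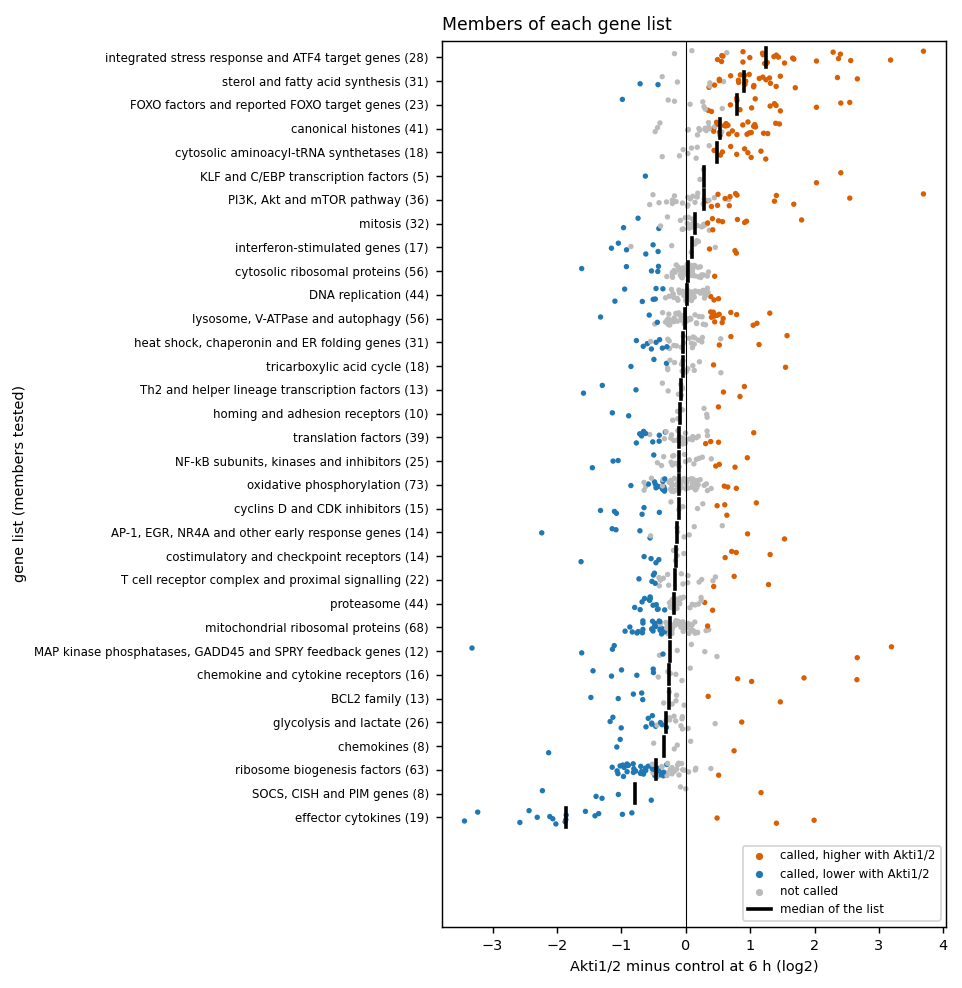
Each row is 1 gene list (number of members tested in parentheses), each point is 1 member, and the horizontal axis is the difference of Akti1/2 minus control at 6 h (log2). Orange and blue points passed the test in the higher and lower direction, gray points did not, and the black bar is the list median, which ran from -1.86 (effector cytokines) to 1.25 (integrated stress response).

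Cytokine messages were the group with the lowest median. Of 26 effector cytokine genes on the array, 19 were tested, and all of these differed, 16 lower and 3 higher with Akti1/2, with a median of -1.86 on the log2 scale (-1.83 with the 2 genes at background in treated cells set to their bound). The Th2 cytokines split. Il13, which drives mucus and airway responses, read 11.05 and 11.37 in control and 7.32 and 8.22 in treated cells. Its difference of -3.44 ± 0.43 (SE, n = 2 arrays per group, limma adjusted p = 8.09e-05) is a 10.8-fold drop. Il5, the eosinophil growth factor, read 12.76 and 13.24 in control and 10.85 and 10.54 in treated cells, a difference of -2.31 ± 0.26 (limma adjusted p = 3.19e-05). Il10, which restrains inflammation, fell from 12.06 and 12.20 to 10.32 and 10.19, a difference of -1.87 ± 0.21. Il4, the cytokine that maintains the Th2 state, did not fall. It read 11.58 and 11.38 in control and 11.97 and 11.96 in treated cells, a difference of 0.49 ± 0.14 with a limma adjusted p of 0.0152. The adjusted p for Il4 rose to 0.117 without replicate 2 of the control cells, 0.0522 without replicate 1 of the treated cells, 0.0934 with arrays scaled to the same mean and 0.0625 in a fit of the 4 arrays at 6 h alone. Values of Il13, Il5 and Il10 did not overlap between the groups, and the duplicates of Il13 in treated cells lay farther apart than those in control cells.

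Inflammatory and growth factor cytokines fell as well. Tnf, an inflammatory cytokine, read 10.76 and 10.73 in control and 7.78 and 7.24 in treated cells, a difference of -3.23 ± 0.24 or 9.4-fold (limma adjusted p = 1.86e-06). Csf2, which encodes GM-CSF, read 12.01 and 12.03 in control and 9.51 and 9.38 in treated cells, a difference of -2.58 ± 0.20. Tnfsf14, which encodes the TNF family ligand LIGHT, read 9.63 and 9.44 in control and 7.01 and 7.19 in treated cells, a difference of -2.43 ± 0.16. In all of these the higher treated array lay well below the lower control array. Il6 varied most between duplicates, with 8.78 and 7.69 in control and 5.52 and 6.73 in treated cells, of which only the second was above background. Its difference was -2.11 ± 0.42 (limma adjusted p = 0.0019). Il3, a growth factor of mast cells and basophils, differed by -2.07 ± 0.23, and Areg, an epidermal growth factor receptor ligand, by -2.02 ± 0.21. Lta, which encodes lymphotoxin-α, read 7.62 and 7.22 in control cells, was not above background on either treated array and was at least 3.56-fold lower. Ltb, its partner in the membrane-bound form, fell from 11.45 and 11.22 to 10.24 and 10.46, a difference of -0.98 ± 0.15. The 3 members that were higher were Il4, Il16 and Csf1, of which the last 2 were named after their values were seen. Il16, a chemoattractant for CD4+ cells, rose from 6.77 and 6.37 to 8.29 and 8.83, and Csf1, the macrophage growth factor, rose from 6.01 and 6.08 to 7.45 and 7.45.

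**Figure D3:**
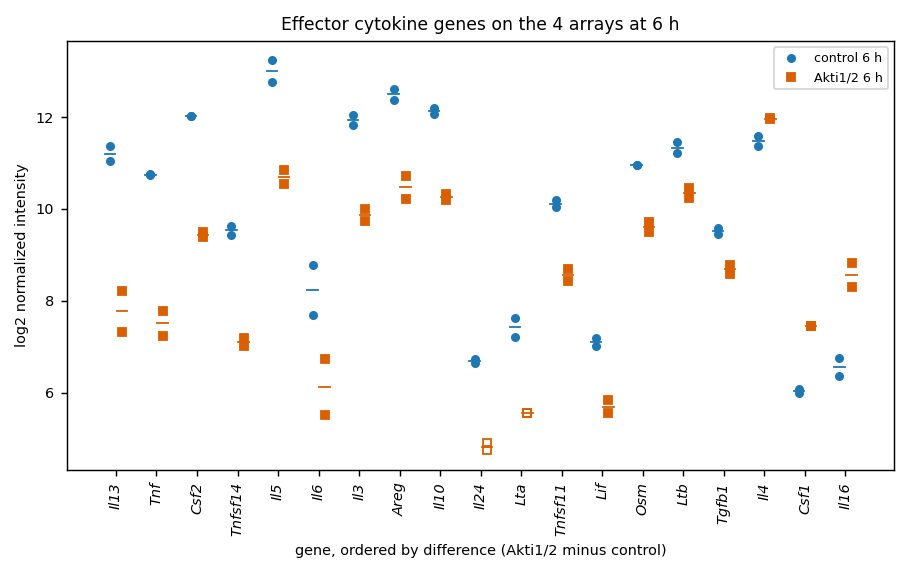
Levels (log2 normalized intensity, vertical axis) of the 19 effector cytokine genes tested on the 2 control arrays (circles) and the 2 Akti1/2 arrays (squares) at 6 h, ordered by difference. Horizontal lines are group means and open symbols mark genes at background on both arrays of that group, and 16 genes lie lower and 3 higher with Akti1/2.

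Chemokines moved less evenly. Of 8 tested, 3 fell and 1 rose, with a median of -0.34. Ccl1, which attracts CCR8-bearing Th2 cells, read 13.29 and 13.16 in control and 11.09 and 11.10 in treated cells, a difference of -2.13 ± 0.18 (limma adjusted p = 3.91e-06). Ccl4, an inflammatory chemokine, fell from 14.14 and 14.23 to 13.07 and 13.16, a difference of -1.07 ± 0.14. Ccl3, another inflammatory chemokine, differed by -0.18 with a limma adjusted p of 0.287 and did not pass the test. Ccl17, a ligand of CCR4, rose by 0.75 ± 0.17. Among 16 receptors for cytokines and chemokines, 4 rose and 6 fell. Cxcr4, the receptor for CXCL12 that holds cells in marrow and lymphoid tissue, read 8.48 and 7.61 in control and 10.36 and 11.05 in treated cells, a difference of 2.66 ± 0.26 (limma adjusted p = 1.33e-05). Ccr7, the lymph node homing receptor, rose from 6.08 and 5.72 to 7.01 and 6.83, and Ifngr1, a chain of the interferon-γ receptor, from 7.83 and 7.88 to 9.91 and 9.47. Il2ra, the α chain of the IL-2 receptor, fell from 10.49 and 10.37 to 8.62 and 9.36, a difference of -1.44 ± 0.22. Both treated arrays lay below both control arrays for Il2ra, and above them for Cxcr4, Ccr7 and Ifngr1.

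The integrated stress response had the highest median of the lists. Of 41 genes on the array, 28 were tested, 25 rose, none fell, and the median was 1.25 (1.21 with 3 genes at background in control cells set to their bound). Trib3, a pseudokinase induced by ATF4 and able to bind Akt, read 6.63 and 6.65 in control and 10.41 and 10.26 in treated cells, a difference of 3.69 ± 0.13 or 12.9-fold (limma adjusted p = 2.47e-09). Ddit3, which encodes the stress factor CHOP, read 7.52 and 7.41 in control and 10.66 and 10.63 in treated cells, a difference of 3.18 ± 0.10. Chac1, which degrades glutathione, read 9.01 and 8.37 in control and 11.24 and 11.26 in treated cells, a difference of 2.56 ± 0.18. Slc1a4, a transporter of neutral amino acids, read 5.82 and 5.79 in control and 8.04 and 8.37 in treated cells, a difference of 2.40 ± 0.19. Its deposited control intensities, 179.8 and 167.2, lay near the negative controls, so the size of this difference depends on the background correction. For these 4 genes the lowest treated array lay above the highest control array. Promoter windows of the 4 are printed as the sequence around the start site of the members of largest difference. They come from RefSeq on mouse build GRCm38.p6, run from 250 bases before to 50 bases after the transcription start in the direction of the gene, and lie at chr2:152344011-152344310 (minus strand) for Trib3, chr10:127290543-127290842 (plus strand) for Ddit3, chr2:119350992-119351291 (plus strand) for Chac1 and chr11:20332664-20332963 (minus strand) for Slc1a4. Capitals mark the ATF4 composite site (TGATGNAAN or its complement) in Trib3, Chac1 and Slc1a4, and the AP-1 site (TGANTCA) in Ddit3, whose window held no ATF4 site of this spelling.
Trib3: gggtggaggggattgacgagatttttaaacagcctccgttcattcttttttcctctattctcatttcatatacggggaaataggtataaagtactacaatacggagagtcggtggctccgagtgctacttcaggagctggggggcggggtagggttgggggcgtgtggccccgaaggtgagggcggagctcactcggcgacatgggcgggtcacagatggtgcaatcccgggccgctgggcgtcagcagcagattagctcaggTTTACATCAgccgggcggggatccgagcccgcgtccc
Ddit3: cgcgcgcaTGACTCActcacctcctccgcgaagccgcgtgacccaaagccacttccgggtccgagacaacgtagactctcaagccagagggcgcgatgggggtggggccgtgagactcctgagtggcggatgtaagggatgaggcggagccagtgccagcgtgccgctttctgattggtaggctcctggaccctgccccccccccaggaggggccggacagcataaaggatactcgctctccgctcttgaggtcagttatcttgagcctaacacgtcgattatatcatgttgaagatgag
Chac1: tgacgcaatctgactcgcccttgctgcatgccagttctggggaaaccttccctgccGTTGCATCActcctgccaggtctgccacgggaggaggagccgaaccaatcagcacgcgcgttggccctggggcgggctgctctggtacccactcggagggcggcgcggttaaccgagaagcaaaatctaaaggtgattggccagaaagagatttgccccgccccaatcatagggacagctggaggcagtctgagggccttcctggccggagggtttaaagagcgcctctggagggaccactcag
Slc1a4: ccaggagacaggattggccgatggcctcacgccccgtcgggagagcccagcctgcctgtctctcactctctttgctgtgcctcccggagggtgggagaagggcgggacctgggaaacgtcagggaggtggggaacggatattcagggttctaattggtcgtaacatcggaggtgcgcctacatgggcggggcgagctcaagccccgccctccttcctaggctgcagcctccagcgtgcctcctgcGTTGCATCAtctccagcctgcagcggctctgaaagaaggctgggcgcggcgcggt

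The ATF4 site began 13 bases after the start of Trib3, 194 bases before the start of Chac1 and 5 bases before that of Slc1a4, and the AP-1 site 242 bases before the start of Ddit3. Both strands were searched, and a match is a run of letters only. Here and below, shares count every tested member that matched, called or not, and all promoters include those of genes not tested. The stress response and FOXO lists were drawn up partly from reported ATF4 and FOXO targets. Their shares of those sites are therefore not a result of these data, and no share was tested. The ATF4 site was found in 7 of 32 promoters (21.9%) of the 26 stress response genes that matched the promoter table, and in 5 of 13 promoters (38.5%) of tRNA synthetase genes, while 3.95% of all 32851 promoters held it. None of 19 cytokine promoters held it, and 4 of these 19 held the AP-1 site (21.1%), which 7.81% of all promoters held.

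Among the other members, Gpt2, an alanine aminotransferase, rose from 6.76 and 6.72 to 9.18 and 9.06, and Slc6a9, a glycine transporter, from 7.09 and 6.81 to 9.46 and 9.01. Atf4 itself rose from 11.00 and 10.99 to 12.21 and 12.32, a difference of 1.27 ± 0.12. Asns, asparagine synthetase, rose from 10.60 and 10.49 to 11.74 and 11.80. Ppp1r15a, listed as Myd116 on the array, which encodes the subunit that directs a phosphatase to eIF2α, rose by 1.44 ± 0.18, and Atf3, a repressor of the same family, was at least 2.04-fold higher. The serine synthesis genes Phgdh and Psat1 rose by 0.58 and 0.56. The 3 members that did not pass were Slc3a2 (0.64, limma adjusted p = 0.06), Vegfa (0.09) and Slc1a5 (-0.18). Of 18 cytosolic tRNA synthetases, 10 rose and none fell, with a median of 0.49. Aars, for alanine, rose from 11.13 and 11.27 to 12.59 and 12.29, and Nars, for asparagine, from 8.68 and 8.72 to 9.71 and 10.03. Eprs, Lars, Sars and Iars rose by 0.79 to 1.02. Each of these 6 synthetases was higher on both treated arrays than on either control array.

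**Figure D4:**
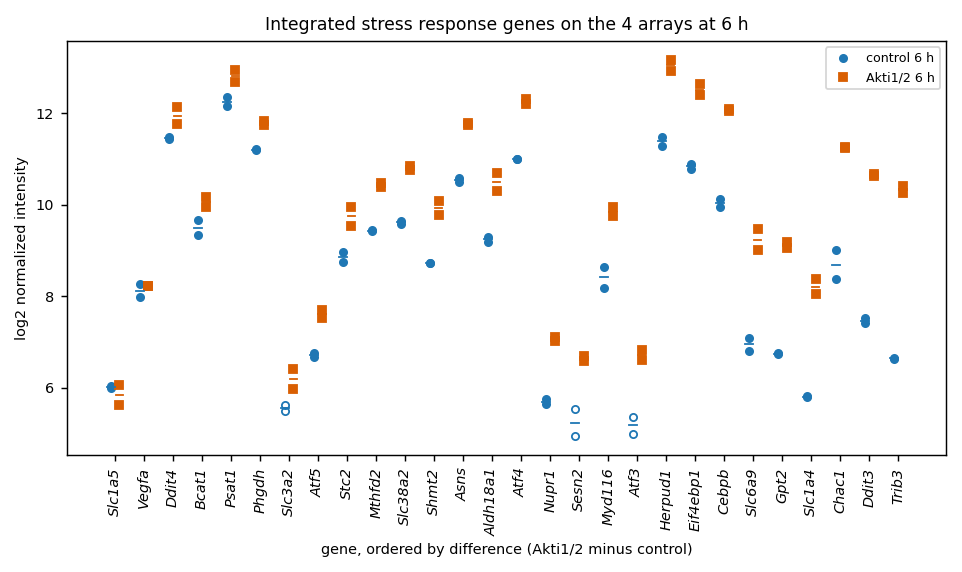
Levels (log2 normalized intensity, vertical axis) of the 28 integrated stress response genes tested on the 2 control arrays (circles) and the 2 Akti1/2 arrays (squares) at 6 h, ordered by difference. Horizontal lines are group means and open symbols mark genes at background on both arrays of that group, and 25 genes passed the test as higher with Akti1/2, with Trib3 at the right end at 3.69.

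Lipid synthesis genes rose together with Akti1/2. Of 31 sterol and fatty acid genes tested, 24 rose and 2 fell, with a median of 0.91 (0.82 with 2 genes at their bound). Mvd, a decarboxylase of the mevalonate pathway, read 7.43 and 7.39 in control and 10.04 and 10.11 in treated cells, a difference of 2.67 ± 0.12 or 6.34-fold (limma adjusted p = 2.27e-08). Msmo1, a sterol methyl oxidase listed as Sc4mol, rose by 2.36 ± 0.24 after background correction and normalization. The deposited intensities of Msmo1, without these steps, were 285.1 and 226.5 in control and 573.5 and 1154.0 in treated cells. Acat2, a thiolase at the start of the pathway, rose from 7.95 and 8.14 to 9.76 and 9.74. Both arrays of treated cells lay above both of control cells for these genes. Scd1, a fatty acid desaturase, rose by 1.47 ± 0.12, Cyp51, a lanosterol demethylase, by 1.40 ± 0.12, and Fads1, another desaturase, by 1.31. Srebf2, the transcription factor that drives the sterol genes, rose by 0.85 and its retention factor Insig1 by 0.93. The 2 members that fell were the fatty acid elongases Elovl6 (-0.71) and Elovl1 (-0.43), named after their values were seen. The list was also set against 0 h within each treatment. Relative to control cells at 0 h, its median was -0.73 in control cells at 6 h, and relative to treated cells at 0 h it was 0.15 in treated cells at 6 h. These values share the 6 h arrays with the comparison at 6 h. The sterol response element TCACNCCAC was in none of the 29 promoters of the 22 genes matched, against 1.24% of all promoters, and the E-box CACGTG was in 6 of 29 (20.7%), against 7.15% of all promoters.

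FOXO factors and their reported targets mostly rose. The list includes Klf6, Cebpb and Ctla4, which the study had named as raised by Akti1/2 in these same arrays. Their rise here is therefore not separate support, and Cebpb is also on the integrated stress response list. Of 23 tested, 15 rose and 1 fell, with a median of 0.79 (0.69 with 2 genes at their bound). Pik3ip1, an inhibitor of the PI3K catalytic subunit, was not above background on either control array, read 8.15 and 8.00 in treated cells and was at least 5.26-fold higher. Klf6, a zinc finger factor, read 8.47 and 8.38 in control and 10.56 and 11.11 in treated cells, a difference of 2.41 ± 0.17 (limma adjusted p = 1.57e-06). Cebpb, a bZIP factor, rose from 10.12 and 9.96 to 12.05 and 12.09, a difference of 2.03 ± 0.12. Irs2, an adaptor that links receptors to PI3K, rose from 8.64 and 8.79 to 10.34 and 9.85, and Ctla4, an inhibitory receptor, from 10.06 and 9.94 to 11.35 and 11.28. Bbc3, which encodes the pro-death protein PUMA, rose from 7.75 and 7.84 to 9.29 and 9.23. Foxo1 itself rose by 0.69. The member that fell was Tnfsf10, which encodes the death ligand TRAIL (-0.98), named after its values were seen. The FOXO site GTAAACA was in 3 of 21 promoters (14.3%) of the 17 genes matched and in 3.65% of all promoters. Klf2 and Gadd45a did not pass the filter on dim genes. The study also named Gadd45 as raised by Akti1/2, without saying which member. Gadd45g (-3.32) and Gadd45b, which are on the feedback list below and not on this one, were called lower.

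Genes of the PI3K, Akt and mTOR pathway rose in 14 of 36 cases and fell in none, with a median of 0.28. Trib3 and Pik3ip1 had the largest differences. Both are also on the lists above, as are Eif4ebp1, Sesn2 and Irs2, so the rises named here are not separate from those lists. Eif4ebp1, a translation repressor that mTORC1 inactivates, rose from 10.89 and 10.79 to 12.64 and 12.39, a difference of 1.68 ± 0.12 (limma adjusted p = 1.19e-06). Sesn2, an inhibitor of mTORC1, was not above background on either control array and was at least 1.94-fold higher. Tsc2, which opposes the pathway, differed by 0.19 and did not pass. Without replicate 2 of the control cells, 7 of the 36 rose, and in a fit of the 4 arrays at 6 h alone 9 rose.

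Early response and feedback genes fell and rose by large amounts within the same families. Of 12 feedback genes of the MAP kinase phosphatase, GADD45, SPRY and RGS kinds, 2 rose and 5 fell. Gadd45g, a stress sensor that activates p38 and JNK signaling, read 11.14 and 11.18 in control and 8.00 and 7.68 in treated cells, a difference of -3.32 ± 0.14 or 10.0-fold (limma adjusted p = 9.26e-09). Gadd45b, its relative, fell from 10.96 and 11.10 to 9.86 and 9.92. Rgs1, which limits chemokine receptor signaling, read 7.82 and 7.49 in control and 10.77 and 10.93 in treated cells, a difference of 3.20 ± 0.13. Dusp1, a nuclear phosphatase of p38 and JNK, rose from 8.77 and 8.43 to 11.20 and 11.34, while Dusp2, a phosphatase of ERK, fell from 10.48 and 10.60 to 8.94 and 8.91. The differences of these phosphatases, 2.66 for Dusp1 and -1.62 for Dusp2, were of opposite sign.

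Of 14 early response transcription factor genes, 2 rose and 5 fell, with a median of -0.13 (0.02 without replicate 1 of the control cells). Ier3, a survival gene among the brightest on the arrays, read 14.31 and 14.09 in control and 11.95 and 11.97 in treated cells, a difference of -2.24 ± 0.18 (limma adjusted p = 3.17e-06). Myc, a transcription factor that drives growth, fell from 7.72 and 7.79 to 6.81 and 6.42, a difference of -1.14 ± 0.18. Junb, an AP-1 subunit, fell by 0.71. Egr1, which fell after stimulation in control cells, differed by -0.55 and did not pass (limma adjusted p = 0.155). Of 25 NF-κB genes, 4 rose and 4 fell, with a median of -0.10 that became 0.02 with arrays scaled to the same mean. Bcl3, an NF-κB cofactor, fell from 8.73 and 8.91 to 7.16 and 7.58, and the inhibitors Nfkbid and Nfkbie fell by 1.13 and 1.05. Tnfaip3, which encodes the inhibitor A20, rose from 8.92 and 8.81 to 9.54 and 10.10.

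Of 8 SOCS, CISH and PIM genes, which give feedback to cytokine signals, 5 fell and 1 rose, with a median of -0.79 (-0.46 with 1 gene at its bound). Socs1 lost its call without control replicate 1, control replicate 2 or Akti1/2 replicate 2 (limma adjusted p = 0.0729, 0.0707 and 0.133), which left 4 lower. Socs3, an inhibitor of JAK kinases, read 9.57 and 9.55 in control and 7.58 and 7.09 in treated cells, a difference of -2.23 ± 0.23 (limma adjusted p = 2.17e-05). The survival kinases Pim3 and Pim2 fell by 1.39 and 1.30. Socs2 rose from 11.35 and 11.16 to 12.20 and 12.65. Of 13 lineage transcription factors, 3 rose and 3 fell. Id2, an inhibitor of E proteins, fell from 9.26 and 8.61 to 6.86 and 7.83, and Stat5a, which acts downstream of the IL-2 receptor, from 7.85 and 8.08 to 6.73 and 6.61. Stat4 and Bcl6, factors of Th1 and follicular helper cells, rose by 0.91 and 0.84. Irf4, induced by receptor signaling, fell by 0.77.

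Genes of the antigen receptor and of costimulation moved in both directions. Of 22 genes of the T cell receptor complex and proximal signaling, 3 rose and 5 fell, with a median of -0.17, and in a fit of the 4 arrays at 6 h alone 2 rose and none fell. Cd28, the costimulatory receptor bound by the antibody, rose from 10.01 and 9.89 to 11.19 and 11.29, a difference of 1.29 ± 0.16. Prkcq, which encodes PKCθ, rose from 9.01 and 8.97 to 9.75 and 9.73. Of 14 costimulatory and checkpoint receptors, 4 rose and 5 fell (2 and 3 without replicate 2 of the control cells). Cd160 fell from 7.48 and 7.80 to 6.45 and 5.58, Cd82, a tetraspanin, fell by 0.65, and Lag3, an inhibitory receptor, rose by 0.78. Cd69, an early activation marker, differed by 0.61 (limma adjusted p = 0.0135), and the p rose to 0.113 without replicate 2 of the control cells, 0.127 without replicate 2 of the treated cells and 0.0813 in a fit of the 4 arrays alone. Of 10 homing and adhesion receptors, 2 fell and 1 rose, and the median of -0.09 became 0.05 with arrays scaled to the same mean. Icam1, an adhesion ligand induced by NF-κB, fell from 11.63 and 11.49 to 10.50 and 10.35.

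Ribosome production genes were mostly lower with Akti1/2, while few genes for ribosomal proteins passed the test. Of 63 ribosome biogenesis factors tested, 37 fell and 1 rose, with a median of -0.47, and in a fit of the 4 arrays at 6 h alone 22 fell. Ppan, which matures the large subunit, fell from 8.81 and 8.56 to 7.44 and 7.65, a difference of -1.14 ± 0.13 (limma adjusted p = 4.18e-05). Nop2, a ribosomal RNA methyltransferase listed as Nol1, fell from 8.48 and 8.43 to 7.48 and 7.30. Grwd1, Rrp1b and Rrp9 fell by 0.98 to 1.05. No treated array overlapped a control array for these genes. Of 56 cytosolic ribosomal proteins, 5 fell and 1 rose, with a median of 0.03, and without replicate 1 or 2 of the control cells 3 fell and the median was 0.02 or -0.01. Rps27a, which encodes a ribosomal protein fused to ubiquitin, fell from 10.94 and 11.04 to 10.16 and 9.98, and Rps15a, not above background on either treated array, was at least 2.26-fold lower. These lists differ in the share called, and the difference between lists was not tested. The E-box CACGTG was in 12 of 59 promoters (20.3%) of 53 matched biogenesis genes, 5 of 21 (23.8%) of the FOXO list and 4 of 13 (30.8%) of the tRNA synthetases, lists whose medians lay on the other side of 0, and in 7.15% of all promoters.

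Mitochondrial ribosomal proteins fell in 24 of 68 cases and rose in 1, with a median of -0.24. Mrpl50 fell from 10.41 and 10.35 to 9.47 and 9.56, and Mrpl16 from 9.55 and 9.45 to 8.73 and 8.61. Without replicate 2 of the control cells, 15 fell, without replicate 1 of the control cells 16 fell, and in a fit of the 4 arrays at 6 h alone 9 fell. Of 39 translation factors, 4 rose and 11 fell (1 and 7 without replicate 1 of the control cells, 1 and 8 without replicate 2). Eif5, which triggers start codon selection, rose from 10.64 and 10.56 to 11.65 and 11.66. The cap-binding complex helicase Eif4a1 fell from 13.37 and 13.40 to 12.80 and 12.60, and Eif5a fell by 0.66. Proteasome genes fell in 13 of 44 cases and rose in 2, with a median of -0.18 (7 and none in a fit of the 4 arrays alone), and Psmb10, an immunoproteasome subunit, fell from 10.23 and 10.27 to 9.53 and 9.39.

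Of 26 genes of glycolysis and lactate handling, 12 fell and 1 rose, with a median of -0.30. Pgam1, a mutase of lower glycolysis, fell from 10.10 and 10.13 to 8.93 and 8.94, a difference of -1.18 ± 0.12 (limma adjusted p = 1.45e-05). Slc2a3, the glucose transporter GLUT3, fell from 11.42 and 11.33 to 10.31 and 10.18. The member that rose was Pfkp, a phosphofructokinase, from 9.90 and 9.91 to 10.93 and 10.61. Without replicate 2 of the control cells and in a fit of the 4 arrays at 6 h alone, 6 of the 26 fell. Of 73 oxidative phosphorylation genes, 12 fell and 3 rose, with a median of -0.11, and without replicate 1 of the control cells 4 fell and 2 rose. Of 18 genes of the tricarboxylic acid cycle, 3 fell and 2 rose. Idh1, the cytosolic isocitrate dehydrogenase that makes NADPH, rose from 8.07 and 7.50 to 9.28 and 9.39, and Idh3a, a mitochondrial subunit, fell from 8.38 and 8.37 to 7.74 and 7.30.

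Canonical histone genes rose in 25 of 41 cases and fell in none, with a median of 0.53. Hist2h2ab rose from 9.15 and 9.47 to 10.68 and 10.85, a difference of 1.45 ± 0.21 (limma adjusted p = 0.000191), and Hist1h2ag rose from 10.18 and 10.30 to 11.52 and 11.51. Many histone genes are nearly identical, so their probes may share signal. Replication genes moved less. Of 44 tested, 3 rose and 7 fell, with a median of 0.02, and without replicate 1 of the control cells none rose and 5 fell. Ccne2, a cyclin of S phase entry, fell from 8.58 and 8.14 to 7.29 and 7.22, and Rrm2, a subunit of ribonucleotide reductase, from 8.41 and 8.40 to 7.46 and 7.45. Of 32 mitosis genes, 9 rose and 3 fell. Ndc80, a kinetochore protein, rose from 7.42 and 7.63 to 9.26 and 9.39, and Kif2c, a motor of the same structure, rose by 0.94. Among cyclins and inhibitors, Cdkn1a (p21) fell from 9.04 and 9.11 to 7.63 and 7.88, Ccnd3 (cyclin D3) from 9.81 and 9.83 to 8.75 and 8.73, and Tob1, an antiproliferative gene, rose from 7.23 and 6.88 to 8.20 and 8.10.

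Of 13 BCL2 family genes, 2 rose and 5 fell, and 1 rose and 4 or 5 fell with any 1 of the 4 arrays left out. Bcl2l1, which encodes the survival protein BCL-XL, had deposited intensities of 445.1 and 449.4 in control and 219.1 and 242.2 in treated cells. After background correction and normalization, which the deposited values lack, the log2 difference was -1.47 ± 0.18 (limma adjusted p = 7.26e-05). The survival gene Bcl2a1d and its relative Bcl2a1c, near-identical copies whose probes may share signal, fell by 1.05 and 0.67. Bid, a pro-death member, fell by 0.81, while Bbc3, given above with the FOXO targets, rose. Differences within the family ran from -1.47 to 1.47 on the log2 scale. Of 31 heat shock and folding genes, 4 rose and 8 fell, with a median of -0.04 that was -0.24 to 0.12 with 1 array of either group left out, and 4 rose and 2 fell without replicate 2 of the control cells. Xbp1, the transcription factor of the unfolded protein response, rose from 11.12 and 11.11 to 12.87 and 12.51, and Hspa8, a cytosolic chaperone, fell from 13.85 and 14.01 to 13.41 and 12.92. Of 56 lysosome and autophagy genes, 16 rose and 3 fell, with a median of -0.01 that became 0.12 with arrays scaled to the same mean, and 7 rose and 6 fell without replicate 2 of the treated cells. Sqstm1, which encodes the autophagy receptor p62, rose from 10.88 and 10.72 to 12.03 and 12.18, and Gusb, a lysosomal enzyme, fell from 9.73 and 10.03 to 8.65 and 8.46. Of 17 interferon-stimulated genes, 3 rose and 6 fell, and 2 rose and 2 fell without replicate 1 of the control cells. Irf8 fell from 7.25 and 6.80 to 5.80 and 5.94.

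Several of the largest differences lay outside the lists. Hbp1, a repressor of cell cycle genes, read 5.71 and 5.82 in control and 9.54 and 9.57 in treated cells. The difference of 3.79 ± 0.11 or 13.8-fold (limma adjusted p = 6.89e-10) was the largest rise among genes above background in both groups. Its deposited intensities were 175.6 and 168.3 in control and 772.4 and 947.0 in treated cells. The control values lay near the mean negative controls, 137.9 and 131.5, so the size of the fold depends on the background correction. Tsc22d3, which encodes the glucocorticoid-induced leucine zipper GILZ, read 7.86 and 7.99 in control and 11.43 and 11.26 in treated cells, a difference of 3.43 ± 0.13. Ypel3, a growth suppressor, rose from 8.19 and 7.94 to 10.53 and 10.44. Duplicates of these genes lay close together in both groups. In the lower direction, Asb2, a subunit of a ubiquitin ligase, read 11.49 and 11.68 in control and 9.36 and 8.71 in treated cells, a difference of -2.55 ± 0.21. Furin, a proprotein convertase, read 11.07 and 11.08 in control and 8.77 and 8.95 in treated cells, a difference of -2.21 ± 0.13 (limma adjusted p = 2.27e-07). Tnfrsf12a, the receptor of the cytokine TWEAK, fell from 10.42 and 10.37 to 8.40 and 8.09. All 3 lay lower on both treated arrays than on either control array.

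Some genes were measured on 1 side only. With provisional symbols such as LOC numbers left out, 131 genes called higher were above background on both treated arrays and on neither control array. In the lower direction, 82 called genes were above background on both control arrays and on neither treated array. These counts also require the same direction on both chips and a bound in the direction of the call. They do not cover every called gene at background in a group. Col4a1, a collagen of basement membranes, read 8.94 on both treated arrays and was at least 9.57-fold higher. Foxq1, a forkhead factor, was at least 4.76-fold higher, Arl11, a small GTPase, at least 4.31-fold and Acer2, an alkaline ceramidase listed as Asah3l, at least 3.47-fold. Hamp, which encodes the iron hormone hepcidin, read 7.88 and 8.10 in control cells and was at least 5.27-fold lower. Caln1, a calmodulin-like gene, was at least 4.51-fold lower, Insc at least 2.88-fold and St3gal5, a sialyltransferase, at least 2.56-fold.

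The difference between treated and control cells was near 0 before stimulation for nearly all genes. At 0 h, after the inhibitor alone, 4 genes were called (0.0541%), and 383 had an unadjusted limma p under 0.05. The 4 were Rgs1 (2.38 ± 0.13), Chac1 (1.45 ± 0.18) and Ddit3 (1.07 ± 0.10), which were higher, and Dusp2 (-1.08 ± 0.12), which was lower. These 4 thus differed before CD3/CD28 stimulation and had the same sign at 6 h. At 2 h, 2103 genes were called (28.4%), 1004 higher (13.6%) and 1099 lower (14.9%). At 12 h, 3620 genes were called (49%), 1786 higher (24.2%) and 1834 lower (24.8%). The difference at 6 h departed from that at 0 h in 1445 genes (19.5%), from that at 2 h in 887 genes (12%) and from that at 12 h in 438 genes (5.92%). The comparisons of each time with 6 h share the 6 h arrays. Treated cells at 6 h also had a longer time since the inhibitor was added than those at 0 h. No unstimulated cells were sampled at 6 h, so stimulation and time with the inhibitor cannot be told apart.

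Gene groups followed different courses over time. The integrated stress response had a median difference of 0.08 at 0 h, 1.14 at 2 h, 1.25 at 6 h and 1.57 at 12 h, and 24 of 28 genes were already higher at 2 h. Effector cytokines had medians of -0.14, -1.30, -1.86 and -1.41 at the 4 times, and 4 of 19 differed between 2 and 6 h. Sterol genes had medians of -0.02, 0.44, 0.91 and 0.47, with 10 of 31 differing between 2 and 6 h and 8 of 31 between 6 and 12 h. Ribosome biogenesis factors had medians of -0.02 at 0 and 2 h, -0.47 at 6 h and -0.56 at 12 h, with 14 of 63 differing between 2 and 6 h and 2 between 6 and 12 h. The replication list, near 0 until 6 h, had a median of -0.55 at 12 h, with 12 of 44 genes differing between 6 and 12 h. Histone genes had their highest median at 6 h, and their median at 0 h was 0.28.

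Single genes showed the same variety. Hbp1 differed by 1.46 at 2 h, 3.79 at 6 h and 3.45 at 12 h, and the rise from 2 to 6 h, 2.33, passed the test. Mvd peaked at 6 h, with 1.06 at 2 h, 2.67 at 6 h and 1.41 at 12 h, and both steps passed. Gadd45g was lowest at 6 h, with -1.79 at 2 h, -3.32 at 6 h and -1.74 at 12 h, and both steps passed. Il10 differed by -0.50 at 2 h, which did not pass (limma adjusted p = 0.1), by -1.87 at 6 h and by -0.56 at 12 h. Tnf, which had fallen by 3.61 at 2 h, differed by -3.23 at 6 h, and the change between the times did not pass (limma adjusted p = 0.501). Il5 was lowest at 12 h, at -3.70. Ccl3 and Ltb were higher with Akti1/2 at 12 h, by 1.04 and 0.52, and the change from 6 h passed for both.

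**Figure D5:**
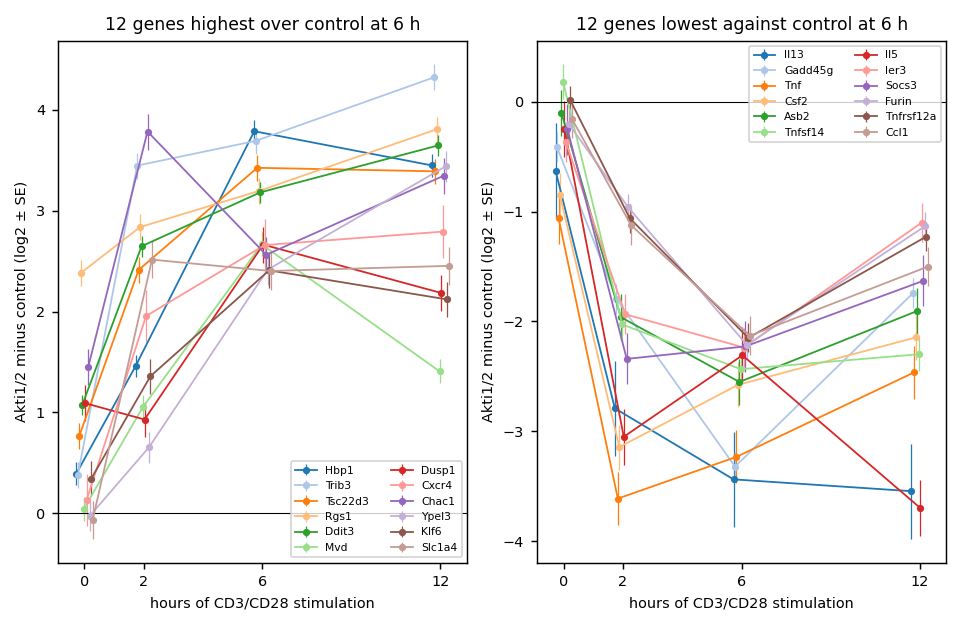
Difference of Akti1/2 minus control (log2, error bars SE from the fit) at 0, 2, 6 and 12 h of CD3/CD28 stimulation for the 12 genes with the largest rises (left) and the 12 with the largest falls (right) at 6 h among genes above background on all 4 arrays at 6 h, with points shifted slightly sideways for clarity. Rgs1 starts at 2.38 at 0 h, Mvd peaks at 6 h, and Gadd45g, Furin and Ier3 lie closer to 0 at 12 h than at 6 h.

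Many of these genes changed in control cells between 0 and 6 h of stimulation, where stimulation and time in culture cannot be told apart. From 0 to 6 h, 2037 genes changed in control cells (27.5%). Effector cytokines had a median change of 2.77 in control and 1.46 in treated cells, and ribosome biogenesis factors of 0.47 in control and -0.04 in treated cells. Il13 rose by 4.72 from 0 to 6 h in control cells and by 1.90 in treated cells, Csf2 by 5.15 and 3.43, and Il10 by 5.68 and 3.81. Il4 rose by 1.58 in control and 1.62 in treated cells. Gadd45g rose by 2.25 in control cells and differed from 0 h by -0.66 in treated cells. Trib3 differed from 0 h by 0.14 in control cells and rose by 3.45 in treated cells, and for Hbp1 these values were -1.72 and 1.67. These changes use the 6 h arrays of the comparison between treated and control cells and are given beside it as values only.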

How the data were processed

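RNA from 16 samples of D10 cells was hybridized, 1 sample per array, to 2 chips of 8 arrays. The authors deposited 1 linear bead intensity per gene and array from Illumina GenomeStudio (gene expression module, version 1.5.4 per the file header), without normalization or background subtraction. The table held 18138 genes and 832 control entries. A second control table, which covers 15 arrays, was not used. The number of arrays limits the precision. Above background means that the share of the 798 negative controls at or above a gene's intensity on that array was under 0.01. Intensities were put through neqc in limma 3.58.1 under R 4.3.3 (offset 16, quantile normalization, log2). All 8 groups were fitted together (lmFit, contrasts.fit, eBayes, 8 residual and 4.26 prior degrees of freedom), without replicate or chip terms, with Benjamini-Hochberg adjustment over 7395 genes. Bounds compared the bright group with the higher of a dim gene's value and the lowest signal above background. RefSeq named 16590 genes. The genes, lists and tests were chosen with earlier results of these data known. Named genes were the 12 largest rises and falls among genes above background in both groups, 5 bounded genes per direction, up to 6 called members per list and the genes in the study's text, of which 1 is not reported here. Alternatives were other normalizations and filters, replicate or chip blocks, a fit of 4 arrays, and leaving out each array. The steps were checked on simulated arrays. Python 3.11.15, pandas 2.3.3, numpy 2.4.6 and matplotlib 3.10.9 made the tables and plots.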

Additional observations from a re-analysis of the deposited data

Results flagged for a closer look

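The difference between Akti1/2 and control cells changed with time in a share of genes by the interaction tests in limma. It differed between 6 h and 0 h in 1445 genes, between 6 h and 2 h in 887 and between 12 h and 6 h in 438. Of the 55 genes with the largest differences, given as bounds or named by the study, 20 differed from 2 h, 13 from 12 h and 26 from either. Over all genes tested, 12% differed from 2 h and 5.92% from 12 h. Many of the 55 were chosen for large differences at 6 h. The tests reuse the 6 h arrays, so this choice itself favors a difference from the other times.

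The difference at 6 h minus that at 2 h was positive for Hbp1 (2.33), Col4a1 (1.91), Ypel3 (1.76), Dusp1 (1.73), Mvd (1.61), Foxq1 (1.59), Arl11 (1.39), Klf6 (1.05), Tsc22d3 (1.01) and Ddit3 (0.53). All of these were higher with Akti1/2 at both times. It was negative for Hamp (-2.95), Gadd45g (-1.53), Il10 (-1.38), Caln1 (-1.30), Furin (-1.25), Chac1 (-1.22), Tnfrsf12a (-1.09), Ccl1 (-1.01), Insc (-0.79) and Cd82 (-0.50). Chac1 was higher with Akti1/2 at both times and closer to control at 6 h.

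The difference at 12 h minus that at 6 h was positive for Gadd45g (1.58), Ltb (1.50), Il10 (1.31), Ccl3 (1.22), Gadd45b (1.21), Ier3 (1.14), Furin (1.08), Ypel3 (1.02), Tnfrsf12a (0.92) and Ccl4 (0.88), and negative for Il5 (-1.39), Mvd (-1.26) and Foxq1 (-0.99). Ypel3 was higher with Akti1/2 at 6 h and higher again at 12 h, while the other genes with a positive value were called lower at 6 h, apart from Ccl3, which was not called. These are fitted values, not bounds, for 6 genes with groups at background. For 6 h against 2 h, the control group at 6 h was at background for Col4a1 and Foxq1, both control groups for Arl11, and the treated group at 6 h for Caln1 and Insc. Of the groups at 2 and 6 h, Hamp was above background only in control cells at 6 h, so its difference at 2 h was not measured on either side. For 12 h against 6 h, Foxq1 was at background in control cells at 6 h. With 2 arrays per group, no array could be tested as standing apart from its group.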

How the results depend on the processing

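With 2 arrays per group, the number of arrays limits the precision. The 2776 genes called at 6 h became 2875 without background correction, 2825 with arrays scaled to the same mean, 2498 with no filter on dim genes, 2442 with genes above background on all 16 arrays and 2768 with those above it on at least 2 of the 4 arrays at 6 h. Of these calls, 2593, 2402, 2394, 2237 and 2681 were shared with the 2776. A fit of the 4 arrays at 6 h alone called 1652 genes, of which 1625 were shared, and a difference of at least 1 left 550. J5 scores beyond 20 held for 130 genes, 72 higher and 58 lower, of which 105 were also called by limma. J5 is the measure in the study's methods, where it scored stimulated against unstimulated cells within each treatment. Here it scored Akti1/2 against control cells at 6 h. The study's text gives 20 as the threshold at 2 h and no value for 6 h. Leaving out 1 of the 4 arrays gave 1987 to 2538 calls, of which 1895 to 2157 were shared. The deviations of same-numbered replicates at 6 h correlated at -0.296 (over all pairs of groups -0.296 to 0.264), so the numbers were not taken to pair the samples. The replicate block called 2760 genes, the chip block 2770 and the crossed replicate block, chosen after seeing the data, 2730. For the differences between times, the replicate block gave 1428, 879 and 391 calls for 6 h against 0 h, 6 h against 2 h and 12 h against 6 h. Leaving out each array gave 920 to 1448, 518 to 1297 and 144 to 595 calls. The first fell most without replicate 1 of the control cells at 0 h (920). The second fell to 531 without control 2 h replicate 1, 518 without Akti1/2 2 h replicate 2, and 527 and 552 without control 6 h replicates 1 and 2. The third fell to 188 without either control array at 6 h, 179 and 145 without control 12 h replicates 1 and 2, and 144 and 264 without Akti1/2 12 h replicates 1 and 2. Scaling to the same mean moved the median of all genes from -0.008 to 0.119 in the first and gave 1156 higher and 452 lower (71.9% higher). In the second it gave 626 higher and 283 lower (68.9%). Of the 212 named genes, 169 kept their direction and their side of the threshold in every alternative that tested them. Ribosomal protein genes near 0 changed sign, none of them called. With 1 array left out, Rps6 ranged from -0.0727 to 0.1796, Rps9 from -0.0715 to 0.1197 and Rplp1 from -0.0364 to 0; the lowest value of Rps6 and Rps9 came without Akti1/2 replicate 1, and Rps6 was also below 0 (-0.0152) without control replicate 1. Counts and medians of the gene lists under these alternatives were added after seeing the data. The cause of these changes was not tested.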
